A study of Mus musculus with 12 samples.

Results

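TEL-JAK2 leukemias of the mouse thymus were divided by the level of Gzmb, which encodes granzyme B, a serine protease that killer lymphocytes store in cytotoxic granules. A leukemia was called Gzmb-high where the log2 intensity of its Gzmb probe set was 10 or more, and Gzmb-low where it was under 10. This gave 4 Gzmb-high and 4 Gzmb-low leukemias among 12 arrays, of which the other 4 came from wild-type thymocytes. Gzmb was 11.09, 11.42, 11.02 and 12.22 in leukemias 1, 3, 5 and 7, the Gzmb-high side. It was 6.38, 6.23, 5.88 and 7.96 in leukemias 2, 4, 6 and 8, the Gzmb-low side. The lowest value inside the rule was 11.02 in leukemia 5 and the highest outside it was 7.96 in leukemia 8, a gap of 3.06 on the log2 scale. Thymocyte arrays held 5.74, 5.83, 6.13 and 6.07, and leukemia 8 was the Gzmb-low array furthest above these.

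All mice were of the C57Bl/6 strain. The leukemias came from terminally ill animals of TEL-JAK2 genotype, whose age the labels leave out, and the controls were thymocytes of wild-type mice aged 2 months. Both kinds of sample were thymus cell suspensions lysed as a whole, with no sorting step in the labels, and each RNA was read on 1 Affymetrix array. In such bulk RNA, fewer cells of a type and less RNA per cell cannot be told apart. The promoter that drives the transgene, and whether each array is a separate animal, are not stated in the sources at hand, so the spread between arrays may be in part technical.

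TEL-JAK2 joins the oligomerization part of the transcription factor TEL (ETV6) to the kinase part of JAK2, which gives a kinase active without a cytokine. JAK kinases phosphorylate STAT factors, and interleukin-2 and interferons signal through this pathway to their target genes. Granzymes and perforin are made by NK cells and by cytotoxic T cells after activation, whereas CD4+ CD8+ (double-positive) thymocytes, the bulk of a normal thymus, recombine their T-cell receptor genes and make little of either. The chemokine gene Ccl5 is a late marker of effector and memory T cells.

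The promoters of the genes at the centre of the comparison are shown for the letters of the RUNX motif. RUNX factors are known regulators of T-cell effector genes, and the motif was picked knowing that Runx1 was lower on the Gzmb-high side. A part of Runx1 in the differences was not tested. The promoters run from 250 bases before to 50 bases after the gene's start, on the gene's strand, from RefSeq on GRCm38.p6. Gzmb lies at chr14:56262285-56262584 on the minus strand, Gzma at chr13:113100932-113101231 on the minus strand and Prf1 at chr10:61297586-61297885 on the plus strand. Capitals mark TGTGGT on either strand.
Gzmb: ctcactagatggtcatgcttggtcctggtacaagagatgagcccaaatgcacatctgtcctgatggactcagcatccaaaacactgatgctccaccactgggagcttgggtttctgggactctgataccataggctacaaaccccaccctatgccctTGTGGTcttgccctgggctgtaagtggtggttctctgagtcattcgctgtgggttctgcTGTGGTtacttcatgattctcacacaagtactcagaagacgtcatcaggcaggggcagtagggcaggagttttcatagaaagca
Gzma: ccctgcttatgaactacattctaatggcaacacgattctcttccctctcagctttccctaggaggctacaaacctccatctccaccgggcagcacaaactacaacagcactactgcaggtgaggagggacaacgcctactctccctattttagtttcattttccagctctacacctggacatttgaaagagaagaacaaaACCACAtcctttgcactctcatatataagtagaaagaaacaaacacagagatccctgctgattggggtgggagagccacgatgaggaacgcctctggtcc
Prf1: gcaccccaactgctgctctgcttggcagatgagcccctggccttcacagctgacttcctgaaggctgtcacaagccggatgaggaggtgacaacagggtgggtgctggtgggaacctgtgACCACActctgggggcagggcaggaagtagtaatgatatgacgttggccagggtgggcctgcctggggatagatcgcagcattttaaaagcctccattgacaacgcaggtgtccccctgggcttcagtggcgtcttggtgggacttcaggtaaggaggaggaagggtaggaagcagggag
The Gzmb promoter held the RUNX letters 2 times, and those of Gzma and Prf1 held them 1 time each. A match is a string of letters and not a measured binding site. TGTGGT occurred in 16.9% of all 27025 promoters in the same window, in 28.6% of the 56 promoters found for the 74 genes with a probe set counted higher on the Gzmb-high side, and in 6.9% of the 29 found for the 38 genes counted lower. For the interferon-stimulated response element, searched as GAAA, any 2 bases and GAAA, the shares were 3.49%, 14.3% and 10.3% in the same order. TTCNNNGAA, the letters of the STAT site, gave 8.47%, 14.3% and 0%. The T-box letters GGTGTGA gave 3.96%, 3.57% and 6.9%, the ETS letters CAGGAAGT 3.38%, 7.14% and 0%, and the KLF letters CCACACCC 3.57%, 7.14% and 3.45%, with both strands searched for each. These shares describe sets chosen on the same arrays and were not tested. The 27025 promoters include those of genes that the array does not read, and the 6.9% for RUNX letters rests on 2 promoters.

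Because a measured value set the sides, every difference between them is a description with no test. A probe set, a group of short probes that reads 1 transcript, was counted where all 4 Gzmb-high arrays lay beyond all 4 Gzmb-low arrays, the means differed at least 2-fold, and the brighter side lay above the mean control level. That level was 5.64 on the log2 scale, from the 95th percentile of 15 bacterial control probe sets on each array. Without Gzmb, 89 of 12421 probe sets were counted higher (0.717%) and 43 lower (0.346%) in Gzmb-high leukemias. Among 8250 genes, each read by its brightest probe set, 72 were counted higher (0.873%) and 36 lower (0.436%). With no minimum fold or level, 547 probe sets (4.4%) lay wholly above and 470 (3.78%) wholly below, and so did 407 genes (4.93%) and 337 (4.08%) in the same order. The median difference over all genes was -0.0040. The only test used here compares all 8 leukemias with the 4 thymocyte arrays by their labels, with limma and Benjamini-Hochberg adjustment over 12422 probe sets. By it 578 probe sets rose (4.65%) and 1227 fell (9.88%) in leukemia, which for genes came to 425 (5.15%) and 943 (11.4%). Counts for the gene lists below are to be read beside these shares over all genes.

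Arrays of the same side did not stand apart from the other side over the whole table. Pairwise correlations of log2 values over probe sets were 0.979 to 0.990 within the Gzmb-high side, 0.978 to 0.993 within the Gzmb-low side and 0.961 to 0.990 between them. Array medians were 66.5 to 70.2 intensity units, and 54.0% to 60.7% of probe sets were above the array's control level.

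Among the cytotoxic genes, the differences were uneven. Perforin, which opens the target cell membrane, was higher with Gzmb, but granzyme A, the other abundant granzyme of killer cells, was not. Gzma was at 10.41, 11.10, 11.40 and 11.42 on the Gzmb-high side and at 11.79, 11.54, 11.03 and 12.36 on the Gzmb-low side. The sides overlapped, and all 8 leukemias were above the thymocyte arrays, whose mean was 7.71 ± 0.43 (SD, n = 4). By limma Gzma rose by 3.67 (SE 0.29) in leukemia (adjusted p = 2.69e-06), on a probe set prone to cross-hybridization. Gzmb itself, at 5.50 above the thymocyte mean on 1 side and 0.68 above it on the other, had a mean change of 3.09 (SE 1.18) that did not pass (adjusted p = 0.109).

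Prf1, the perforin gene, was 7.04, 7.31, 7.22 and 8.83 on the Gzmb-high side and 6.01, 6.12, 5.95 and 6.20 on the Gzmb-low side. Leukemia 7 was the highest by a wide margin, and the Gzmb-low values lay close to the 5.97 to 6.13 of thymocytes. The difference was 2.88-fold. Ctsw, a cathepsin made in NK and cytotoxic T cells, was higher by 1.26 on the log2 scale, and Ctsc, the peptidase that trims granzymes into active form, by 1.17. Serpinb9, the inhibitor that protects the killer cell from its own granzyme B, was 8.58, 8.61, 8.59 and 8.16 against 7.86, 7.79, 6.77 and 7.33. It was above every thymocyte array in 7 of 8 leukemias and rose in leukemia as a whole (log2 change 1.38, SE 0.31, limma adjusted p = 0.00829). Cst7, a cystatin of cytotoxic cells, was named after its values were seen. It was 9.13 ± 0.33 against 8.11 ± 0.13 (SD, n = 4 each), both sides above the 6.38 ± 0.07 of thymocytes, and rose in leukemia (2.24, SE 0.27, limma adjusted p = 0.000102).

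The 14 cytotoxic granule genes measured besides Gzmb had a median difference of 0.72. Without overlap, 7 of them were higher (50%, against 4.93% of all genes) and 0 lower. By the leukemia test 4 of them rose, Gzma, Serpinb9, Srgn and Lamp1, and 0 fell. Another 6 lay near the control level on both sides, where their levels could not be measured. These were Gzmc, Gzmd, Gzmf, Gzmg, Gzmk and Gzmm. Of the granzymes measured, Gzmb was thus the only one above the control level that separated the sides, by the rule that chose them.

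**Figure D1:**
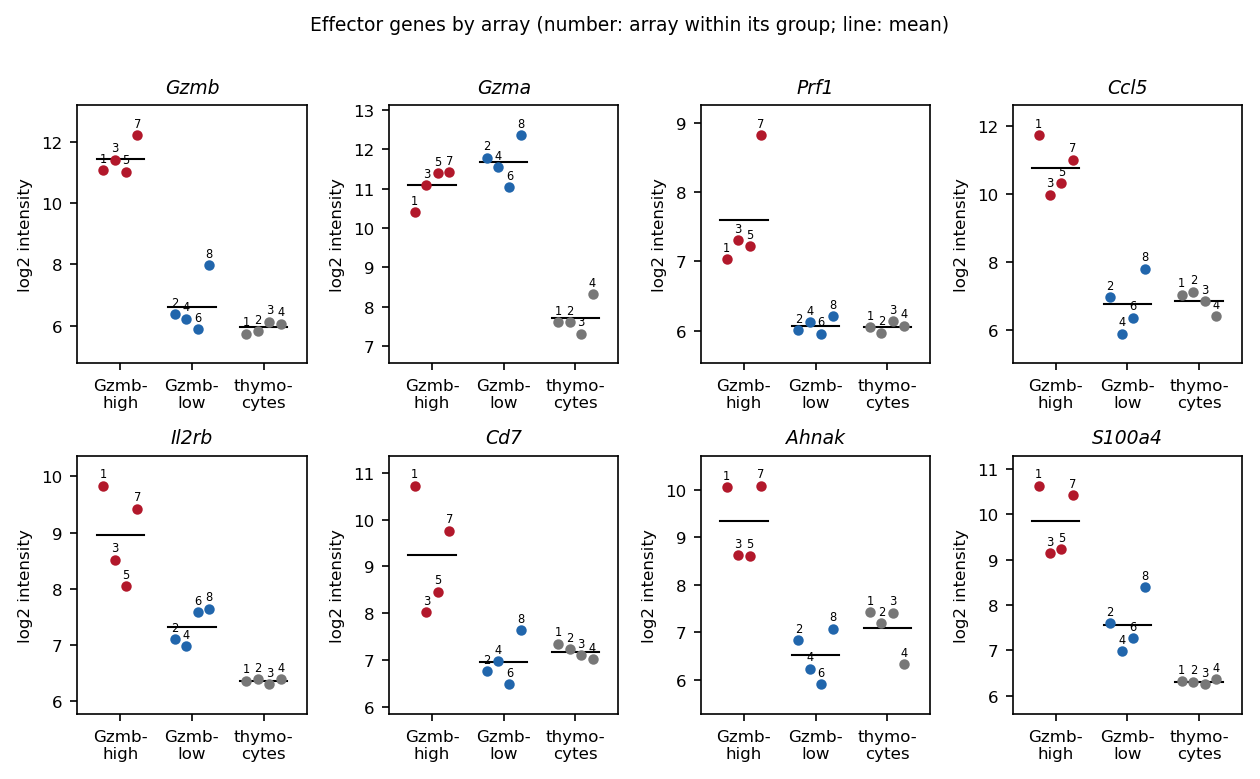
Log2 intensity of 8 effector genes in each array, by side of the Gzmb rule and in thymocytes. Numbers are arrays within their group and lines are means of 4 arrays. Gzma is at 10.41 to 12.36 in all 8 leukemias, while Ccl5 is at 9.99 to 11.74 on the Gzmb-high side and at 5.88 to 7.80 on the Gzmb-low side.

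Ccl5 had the largest difference of any counted probe set. It was 11.74, 9.99, 10.32 and 11.02 in Gzmb-high leukemias and 6.95, 5.88, 6.35 and 7.80 in Gzmb-low leukemias, a 16.3-fold difference. The Gzmb-low values surround the thymocyte mean of 6.85 ± 0.32 (SD, n = 4), and leukemia 8, with the most Gzmb on its side, also had the most Ccl5. Over all leukemias its change of 1.91 (SE 1.01) did not pass (limma adjusted p = 0.263). Apart from Cxcl9, which was at least 1.95-fold higher, other secreted factors of effector cells were nearer to each other between the sides. Of 17 cytokine and chemokine genes 4 were higher without overlap (23.5%, against 4.93% of all genes) and 0 lower (median 0.32). Of the 17, 7 lay near the control level on both sides, where a difference could not be measured. Ccl4, a chemokine released by activated T cells, differed by 0.38. Ifng, the gene of gamma interferon, was higher by 0.77 without overlap but lay near the control level on both sides, where a fold has no clear meaning.

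Surface receptors of activated and memory T cells were higher as well. Il2rb, the beta chain shared by the receptors for interleukins 2 and 15, was 9.83, 8.52, 8.04 and 9.43 against 7.11, 6.97, 7.58 and 7.64. All 8 leukemias were above the thymocytes, at 6.30 to 6.39, and the Gzmb-high side was the further of both. It rose by 1.78 (SE 0.47) in leukemia (limma adjusted p = 0.0197). Cd7, an immunoglobulin-family protein of T and NK cells, was 10.72, 8.02, 8.46 and 9.76 against 6.76, 6.97, 6.49 and 7.64. Within the Gzmb-high side, leukemias 1 and 7 were the highest. Il2ra, the inducible alpha chain of the same interleukin-2 receptor, differed by -0.30 with overlap and rose in leukemia (2.51, limma adjusted p = 3.5e-05). It was named after its values were seen.

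Some inhibitory receptors were part of the difference. Lag3, which binds MHC class II and restrains activated T cells, was 7.79, 7.21, 6.74 and 8.39 against 6.09, 5.83, 6.06 and 6.08, with thymocytes at 6.36 to 6.49. The Gzmb-low side was thus below the thymocytes and the Gzmb-high side above them. Cd160 was at least 1.10-fold higher and the chemokine receptor gene Ccr2 at least 1.75-fold, bounds set by the control level because the Gzmb-low side was near it. The tumour necrosis factor receptor genes Tnfrsf1b and Tnfrsf18 were higher by 1.08 and 0.82 without overlap. Tnfrsf18 also rose in leukemia (1.02, limma adjusted p = 0.00705). Cd5, of the same receptor list, was higher by 1.08 with overlap. Both sides lay below the thymocytes, and it fell in leukemia (-2.33, limma adjusted p = 0.000492). Il7r, of the memory list, was at least 1.04-fold higher with overlap. Its Gzmb-high mean of 5.72 was close to the 5.73 of thymocytes, and the Gzmb-low side was near the control level. Of 21 memory and effector surface genes 10 were higher without overlap (47.6%, against 4.93% of all genes) and 0 lower (median 0.70). Of 16 costimulatory and inhibitory receptors 6 were higher (37.5%) and 0 lower (median 0.51).

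The transcription factors known for effector T cells leaned the same way. Of 13 measured 8 were higher without overlap (61.5%, against 4.93% of all genes), 0 lower and 5 overlapping, with a median of 0.74. Id2, an inhibitor of E proteins needed by killer cells, was 8.64, 8.54, 9.27 and 8.51 against 8.16, 7.42, 7.14 and 7.54. Leukemia 2 came closest to the Gzmb-high side. Hopx, a homeodomain protein of effector cells, was higher by 1.17 and Irf4, which is induced by T-cell receptor signals, at least 1.70-fold. Irf8, an interferon-regulatory factor of myeloid and activated T cells, was higher by 1.25 and rose in leukemia (1.20, SE 0.35, limma adjusted p = 0.0336). Eomes and Prdm1, factors of cytotoxic and terminal effector cells, were near the control level on both sides.

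Genes with a wider range of roles had differences as large. Ahnak, a giant scaffold protein under the plasma membrane, was 10.06, 8.62, 8.61 and 10.09 against 6.83, 6.23, 5.90 and 7.08, a 7.13-fold difference. S100a4, a calcium-binding protein of motile and memory cells, was 10.63, 9.14, 9.22 and 10.43 against 7.60, 6.98, 7.27 and 8.40. In both genes leukemias 1 and 7 were about equal and above leukemias 3 and 5, and leukemia 8 was the highest of its side. S100a4 rose in leukemia (2.40, SE 0.62, limma adjusted p = 0.0175). Gimap4, a GTPase of lymphocytes, was 5.25-fold higher. Samhd1, which degrades deoxynucleotides, was at least 5.34-fold higher, at 8.46, 7.57, 7.90 and 8.39 against 5.24, 4.49, 5.02 and 5.12. A second, dim Samhd1 probe set, near the control level on both sides, gave -0.03. Klhdc2, a substrate receptor for a ubiquitin ligase, was at least 2.18-fold higher.

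**Figure D2:**
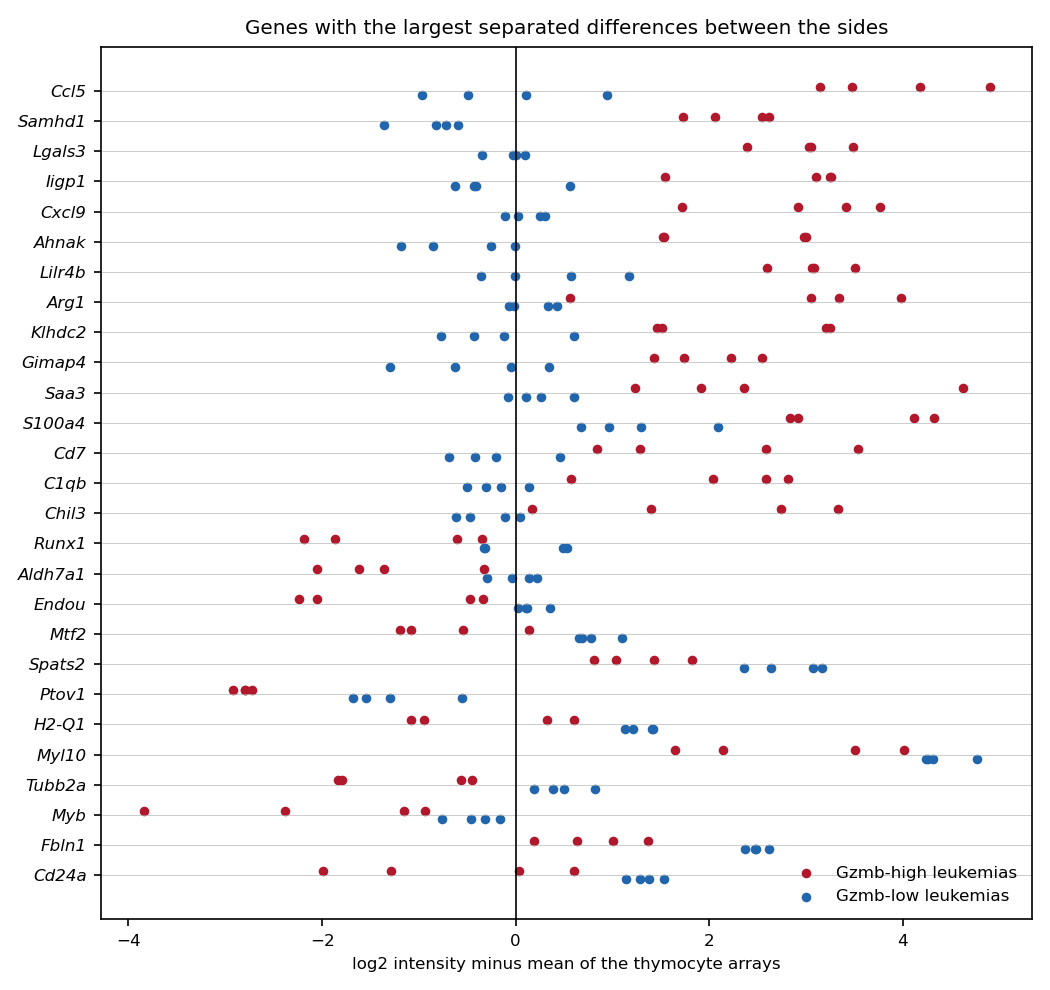
Log2 intensity minus the thymocyte mean for the 15 genes with the largest counted differences higher and the 12 with the largest lower in Gzmb-high leukemias, receptor segments and unnamed clones left out, each point an array. Most Gzmb-low points of the upper genes sit near 0, the thymocyte mean, whereas Myl10 and Spats2 are above 0 in all 8 leukemias.

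For most probe sets counted higher, the thymocyte mean lay nearer the Gzmb-low than the Gzmb-high leukemias. Of the 89 probe sets, 76 (85.4%) had a thymocyte mean nearer the Gzmb-low side, against 60.1% of all probe sets. In 73 of them (82%, against 9.62% of all probe sets) every Gzmb-high array was above every thymocyte array. The count rule picks probe sets that are high in these arrays, so a larger share than among all probe sets is partly built in. By the leukemia test 8 of the 89 rose (8.99%, against 4.65% of all probe sets) and 1 fell (1.12%, against 9.88%). The arrays that picked the 89 also enter that test, so these shares too are partly fixed by the rule. The single one that fell was Nab2, a corepressor of EGR factors, which was named after its values were seen. Nab2 was 7.99 to 8.27 in thymocytes, 6.47 to 7.47 on the Gzmb-high side and 5.26 to 6.45 on the Gzmb-low side. Il4ra, the interleukin-4 receptor chain, also named after its values were seen, was 9.07, 8.35, 8.54 and 9.52 against 7.47, 8.02, 7.04 and 7.52, with 9.06 to 9.33 in thymocytes. There the Gzmb-low side was the one away from the thymocytes.

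Of 17 JAK-STAT target genes 4 were higher without overlap (23.5%, against 4.93% of all genes), 1 was lower and 12 overlapped, with a median of 0.04, while 9 rose and 2 fell in leukemia. Socs2, a feedback inhibitor induced by STAT5, was 8.71 ± 0.44 against 8.67 ± 0.13 (SD, n = 4 each), and Cish, another, was 9.27 ± 0.46 against 9.38 ± 0.04. Both overlapped, were named after their values were seen, and rose in leukemia (3.48 and 2.18, limma adjusted p = 1.48e-08 and 9.66e-07). The 4 higher ones were Pim2, a survival kinase, with a difference of 1.34, Irf1 (0.97), Gadd45g (0.71) and Myc (0.39). The lower one was Bcl2l1, an inhibitor of apoptosis, which was 8.41, 8.89, 8.90 and 8.31 against 9.25, 9.30, 9.07 and 9.02. Its other probe set, near the control level, gave -0.09.

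Genes that gamma interferon induces were higher in leukemias 3, 5 and 7, and only some of them in leukemia 1. Iigp1, a GTPase that attacks the vacuoles of intracellular parasites, was 7.31, 9.02, 8.87 and 9.02 against 5.34, 5.36, 5.15 and 6.33, at least 6.91-fold higher. Leukemia 1 was the lowest of its side and leukemia 8 the highest of the other. Cxcl9, a chemokine that draws activated T cells, was 5.39, 7.08, 6.59 and 7.43 against 3.97, 3.70, 3.55 and 3.92, at least 1.95-fold higher, with leukemia 1 under the mean control level. Gbp3, a guanylate-binding protein, was 6.74, 8.03, 7.79 and 7.98 against 6.40, 5.97, 5.58 and 6.18 and rose in leukemia (1.54, SE 0.43, limma adjusted p = 0.0292). Gbp2 was 7.67, 9.74, 9.33 and 9.03 against 8.20, 7.66, 6.83 and 7.80, so leukemia 1 lay among the Gzmb-low arrays.

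Of 20 genes of the gamma interferon response, 9 were higher without overlap (45%, against 4.93% of all genes). Of the others 1 was lower (5%, against 4.08%), and the list median was 0.50. The lower one was Ifngr1, the receptor chain that binds the cytokine, at 9.36, 9.97, 10.02 and 9.30 against 10.28, 10.41, 10.31 and 10.02. It was named after its values were seen and rose in leukemia (1.30, SE 0.19, limma adjusted p = 0.000571). The list as a whole had 8 genes that rose in leukemia. Its summed intensity was 11457 to 14012 in leukemias 3, 5 and 7 and 9565 to 10241 on the Gzmb-low side. Leukemia 1, at 8525, was below both. The list median relative to thymocytes was 0.63 in leukemia 1, against 0.59 in leukemia 8, the highest of the Gzmb-low side. Genes of MHC class I presentation, which gamma interferon also raises, differed by less. Of 14, 8 were higher without overlap (57.1%, against 4.93% of all genes) and 0 lower, with a median of 0.41. On the test of labels 11 rose in leukemia, where 5.15% of all genes did. The peptide transporter gene Tap1 differed by 0.57, its partner Tapbp by 0.54 and the immunoproteasome gene Psmb10 by 0.50. H2-K1 differed by 0.47 on a probe set prone to cross-hybridization, and by 0.42 without overlap on another such probe set. An H2-K1 probe set not of that kind, above the control level on both sides, gave 0.05 with overlap. Type I interferon genes showed 2 of 15 higher (13.3%, against 4.93% of all genes), Irf7 and Ifi35, and 0 lower (median 0.14).

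Markers of macrophages moved with the same arrays. C1qb, a chain of complement C1q made by tissue macrophages, was 7.15, 8.62, 9.17 and 9.39 against 6.72, 6.08, 6.28 and 6.43, and thymocytes held 6.21 to 7.05. Leukemia 1 was thus just above the thymocyte range and leukemias 3, 5 and 7 well above it. Another C1qb probe set, near the control level on both sides, gave 0.0057. Ctss, a lysosomal protease of antigen-presenting cells, was 8.56, 9.57, 10.18 and 10.50 against 8.20, 7.34, 7.65 and 7.78. Lgals3, a galectin abundant in macrophages, differed from these in its order, at 6.91, 7.55 and 7.58 in leukemias 3, 5 and 7 and above these in leukemia 1, against 4.61, 4.17, 4.49 and 4.53. It was at least 3.60-fold higher on the Gzmb-high side.

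Further myeloid genes were among the largest differences. Arg1, the arginase of alternatively activated macrophages, was 4.17, 6.96, 7.60 and 6.67 against 3.60, 3.55, 4.04 and 3.95, so leukemia 1 stayed near the control level. Chil3, a secreted chitinase-like protein of macrophages, was 5.66, 6.89, 8.82 and 8.23 against 5.54, 5.02, 4.88 and 5.38. Lilr4b, an inhibitory receptor of myeloid and activated lymphoid cells, was instead even across its side, at 6.77, 6.29, 6.75 and 7.20 against 3.34, 3.69, 4.86 and 4.26. Saa3, an acute-phase protein of inflamed tissue, was highest in leukemia 7, at 10.19, against 6.80 to 7.93 in the other Gzmb-high arrays and 5.49 to 6.18 on the Gzmb-low side.

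Of 29 macrophage markers 14 were higher without overlap (48.3%, against 4.93% of all genes), 0 lower and 15 overlapping (median 0.69). Their summed intensity was 4401 to 11301 in Gzmb-high leukemias, 3333 to 4488 in Gzmb-low leukemias and 3145 to 4150 in thymocytes. Leukemia 1 gave the lowest of the Gzmb-high sums, inside the Gzmb-low range. Csf1r, the receptor that defines the lineage, differed by 0.09 with overlap. Adgre1, Itgam, Mertk, Mrc1, Msr1, Marco and Cybb were near the control level on both sides. By the leukemia test 1 marker rose, Pld4, which was not higher on the Gzmb-high side (difference -0.86, overlapping). Of 20 dendritic cell and MHC class II genes 3 were higher without overlap (15%, against 4.93%) and 0 lower (median 0.40). Their sums were 8612 to 16019, 4822 to 9167 and 4041 to 5312 in the same order. H2-Aa, an MHC class II chain, was 10.29, 10.77, 11.40 and 11.44 against 10.30, 8.81, 9.55 and 9.16, where leukemia 2 reached the level of leukemia 1. The part of these cells in the differences of other genes was not tested.

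**Figure D3:**
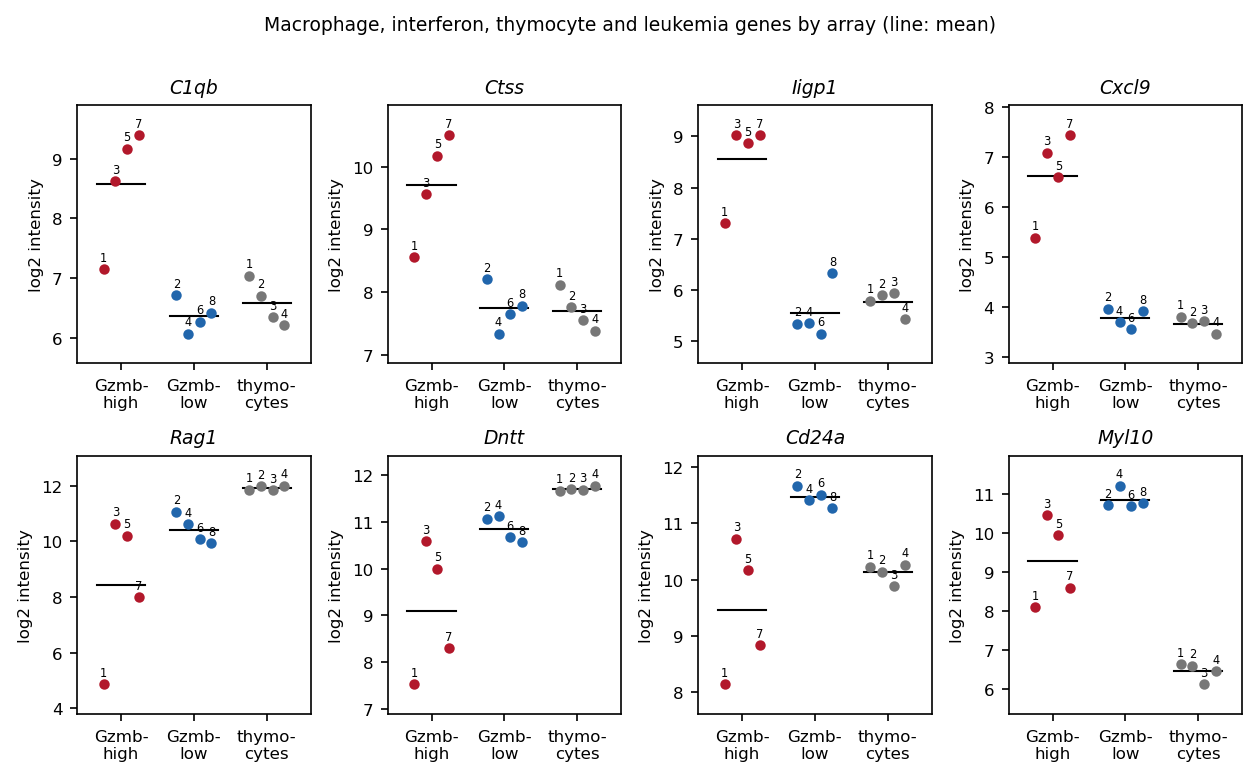
Log2 intensity of 8 genes of macrophages (C1qb, Ctss), interferon response (Iigp1, Cxcl9), thymocytes (Rag1, Dntt, Cd24a) and leukemia (Myl10) in each array, by side and in thymocytes; numbers are arrays and lines are means of 4 arrays. In the upper row leukemia 1 is the lowest of its side in each plot, and in the lower row leukemias 1 and 7 are below the other 6 leukemias.

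The medians of other marker lists were smaller. Of 14 NK cell receptors and adaptors 5 were higher without overlap (35.7%, against 4.93% of all genes) and 1 lower (7.14%, against 4.08%). Their median difference was 0.25. Their summed intensity was 642 to 950 on the Gzmb-high side, 386 to 506 on the Gzmb-low side and 433 to 452 in thymocytes. However, 11 of the 14 were near the control level on both sides, where a difference could not be measured. Among the 11 were Ncr1, a receptor that defines NK cells, at 3.35 to 3.68 against 3.28 to 3.53, and Klrk1. Of the rest, Cd160 was separated (at least 1.10-fold), and Tyrobp and Fcgr3 overlapped. The other separated members were thus among the 11. Tyrobp, an adaptor that NK cells share with macrophages, was 7.49, 8.35, 8.84 and 8.94 against 7.61, 6.60, 6.79 and 6.69, where leukemia 2 exceeded leukemia 1. Of 17 B-lineage markers 4 were higher (23.5%, median 0.20). Jchain, the joining chain of secreted antibodies, was 10.66 and 10.22 in leukemias 2 and 4 and 5.78 to 6.71 in the other 6. Of 17 granulocyte and mast cell markers 1 was higher, S100a8 (5.88%, close to the 4.93% of all genes), and 0 were lower (median 0.09). Of 27 stromal and epithelial markers 1 was higher and 1 lower (3.7% each, median 0.10), both near the control level. Of 8 regulatory T-cell genes 2 were higher (25%, median 0.38), Tnfrsf18 and Tnfrsf4, and the 3 gamma-delta genes overlapped (median -0.25).

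Haemoglobin, a sign of red cells in the suspension, also separated the sides. Hba-a1 was 11.93, 12.49, 12.05 and 12.14 in Gzmb-high leukemias, 10.34, 9.67, 10.63 and 11.58 in Gzmb-low leukemias and 11.54 to 12.66 in thymocytes. The Gzmb-low leukemias were thus the ones with less. Among 11 erythroid genes 2 were higher without overlap (18.2%, against 4.93% of all genes), this one and Alas2 (0.64), and 0 lower (median 0.08). Its part in the other differences was not tested.

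The genes lower on the Gzmb-high side included markers of immature T cells, mainly through leukemias 1 and 7. Cd24a, a surface glycoprotein lost as thymocytes mature, was 8.14, 10.73, 10.16 and 8.84 against 11.67, 11.41, 11.51 and 11.27. The thymocyte arrays, at 9.88 to 10.26, lay between. Myb, a transcription factor of lymphoid progenitors and double-positive cells, was 7.45, 10.36, 10.13 and 8.91 against 11.13, 10.98, 10.53 and 10.83, on a probe set prone to cross-hybridization. A second, dim probe set of it, near the control level, gave -0.13. Runx1, the RUNX factor of immature T cells, was 5.41, 7.25, 6.99 and 5.73 against 8.13, 8.08, 7.27 and 7.27, so leukemia 3 came closest to the Gzmb-low side. Satb1, a chromatin organizer of thymocytes named after its values were seen, was lower by 1.06 and fell in leukemia as a whole (-1.93, SE 0.35, limma adjusted p = 0.0021).

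Recombination genes differed more widely within the Gzmb-high side than between the sides. Rag1, which cuts the receptor genes together with Rag2, was 4.86, 10.62, 10.20 and 7.99 against 11.06, 10.61, 10.07 and 9.93. Leukemias 3 and 5 lay within the Gzmb-low range, leukemia 7 below it, and leukemia 1 below the mean control level. A dimmer probe set of Rag1 that can cross-hybridize gave 0.10. Dntt, which adds bases at receptor joints, was 7.53, 10.58 and 8.30 in leukemias 1, 3 and 7 against 11.06, 11.12, 10.67 and 10.56 on the Gzmb-low side, read by a probe set prone to cross-hybridization. Leukemia 3 overlapped the other side there, and leukemia 5 lay between leukemias 3 and 7. Another Dntt probe set, also prone to cross-hybridization, separated the sides, with a difference of -2.23. Of 20 double-positive thymocyte genes, with a median of -0.49, 17 overlapped. Without overlap 1 was higher (5%, against 4.93% of all genes) and 2 were lower (10%, against 4.08%). The higher one was Slfn1 (1.38) and the lower ones were Satb1 and Lef1 (-0.35). In leukemia as a whole 14 of the 20 fell and 0 rose. The coreceptor genes Cd4 and Cd8a differed by -0.94 and -0.51 with overlap, and Cd8a was 10.18 to 11.35 on the Gzmb-high side.

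Of 17 receptor complex and signalling genes 0 were higher, 2 lower (11.8%, against 4.08% of all genes) and 15 overlapping (median -0.19). Thy1, a pan-T-cell marker, was 11.41, 11.69, 11.65 and 11.61 against 12.08, 12.20, 12.19 and 12.05, a small but non-overlapping difference of -0.54. Cd3d, a chain of the T-cell receptor complex named after its values were seen, had means of 9.61 ± 0.13 and 10.09 ± 0.11 without overlap (SD, n = 4 each). Of 25 mitosis genes and 24 DNA replication genes 0 were separated, with medians of -0.06 and -0.04, while 19 and 11 of them fell in leukemia. Top2a, the topoisomerase of dividing cells, differed by -0.24, and Cdc6, a licensing factor of replication, by -0.31.

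Some genes lower on the Gzmb-high side were gained in leukemia, and the gain was smaller there. Myl10, a myosin light chain, was 8.09, 10.45, 9.95 and 8.59 against 10.71, 11.21, 10.69 and 10.76, with thymocytes at 6.11 to 6.63. It rose by 3.61 (SE 0.50) in leukemia (limma adjusted p = 0.000344). Spats2, an RNA-binding protein, was 10.17, 10.57, 9.79 and 9.56 against 11.11, 11.38, 11.83 and 11.92, and rose by 2.04 (SE 0.40, limma adjusted p = 0.00373). Fbln1, a secreted matrix protein, was 7.94, 8.30, 7.13 and 7.57 against 9.30, 9.40, 9.55 and 9.42, on a probe set prone to cross-hybridization, and rose by 1.64 (SE 0.43, limma adjusted p = 0.0201). Among its other probe sets 2 gave -1.48 and -0.42 without overlap, and 1 gave 0.05. Drc1, an axonemal protein, and Myo6, an unconventional myosin, were chosen for naming once their values had been seen. The Gzmb-high side was 2.02-fold and 2.42-fold lower, in genes that rose by 5.32 (SE 0.32) and 5.17 (SE 0.34) in leukemia (limma adjusted p = 3.34e-07 and 6.38e-07). Of the 43 probe sets counted lower, 11 rose (25.6%, against 4.65% of all probe sets) and 3 fell (6.98%, against 9.88%) in leukemia. In 26 of them (60.5%, against 6.86% of all probe sets) every Gzmb-low array was above every thymocyte array. In 17 (39.5%, against 13.4%) every Gzmb-high array was below every thymocyte array. The count rule picks probe sets with such an order of the sides, so larger shares than among all probe sets are partly built in. The same arrays enter the leukemia test, so its shares are not free of the rule either.

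Ptov1 was lower in leukemia and lowest on the Gzmb-high side, at 6.51, 6.64, 6.71 and 6.64 against 7.88, 8.14, 8.88 and 7.75, with thymocytes at 9.33 to 9.61. The Gzmb-high values were close to each other and below all others. It fell by 2.04 (SE 0.40) in leukemia (limma adjusted p = 0.00342), on a probe set prone to cross-hybridization, and another one differed by -0.50 between the sides without overlap. Mtf2, a Polycomb-associated protein, was 7.65, 8.86, 8.17 and 7.53 against 9.38, 9.40, 9.82 and 9.50, around the thymocyte mean of 8.72 ± 0.15 (SD, n = 4). The remaining large differences were Tubb2a (-1.63) and H2-Q1 (-1.57), both on probe sets prone to cross-hybridization, Endou (-1.42), an RNA-cleaving enzyme, and Aldh7a1 (-1.35), an aldehyde dehydrogenase. A cross-hybridizing probe set of Tubb2a gave -0.01 and a dim one of Aldh7a1 gave 0.09. Gata3, the factor of CD4 lineage choice named after its values were seen, was 6.95, 6.79, 6.76 and 6.71 against 7.61, 8.36, 7.38 and 8.46.

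**Figure D4:**
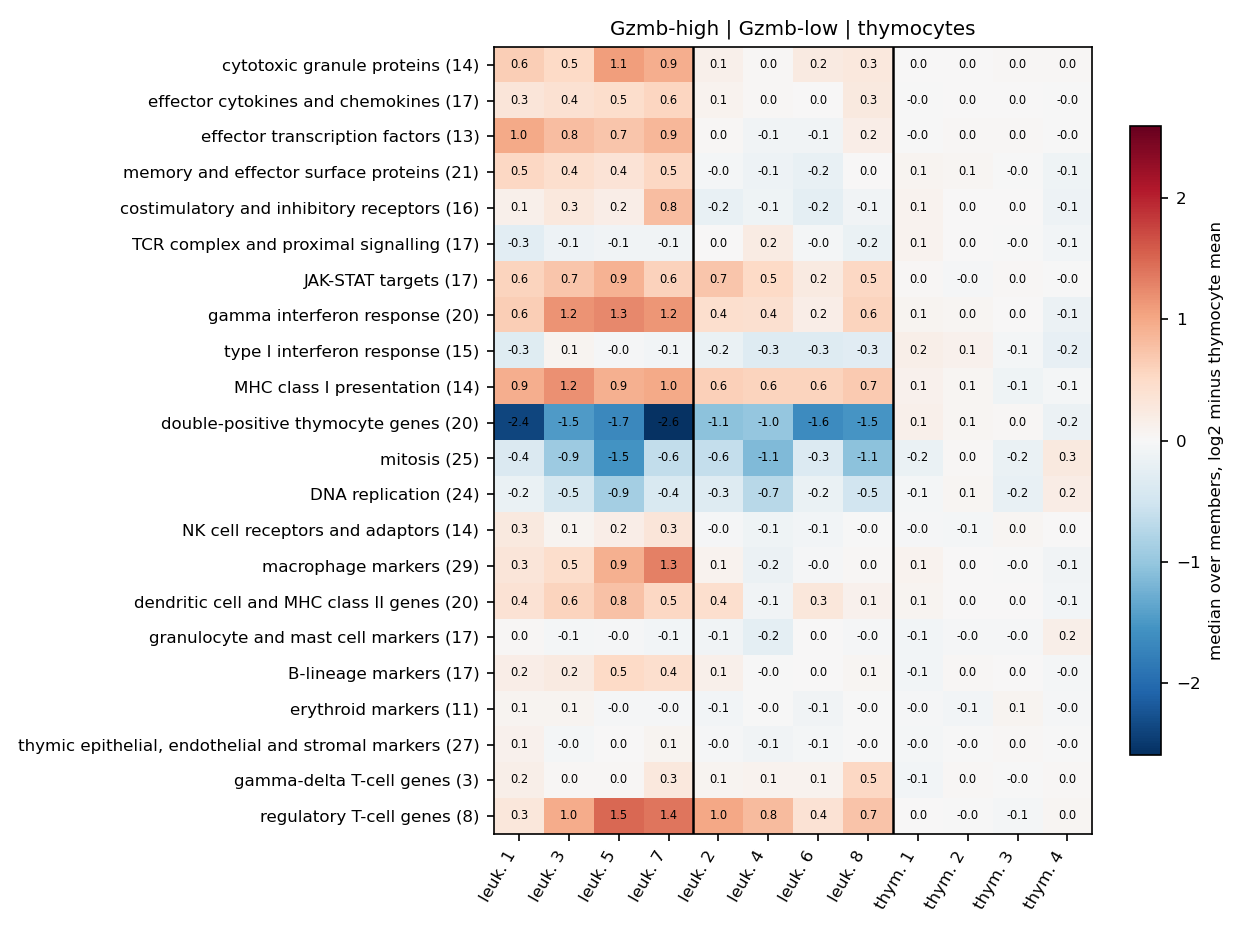
Median over the measured members of each gene list of log2 intensity minus the thymocyte mean, in each array; the number of members is in brackets and colour follows the printed value. Effector transcription factors are at 0.73 to 0.99 in the Gzmb-high leukemias and -0.09 to 0.17 in the Gzmb-low ones, while double-positive thymocyte genes are lowest in leukemias 1 and 7 (-2.38 and -2.58).

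The 4 Gzmb-high leukemias were also compared with each other. Among the 89 probe sets counted higher, leukemia 1 was the lowest of the Gzmb-high arrays in 37 (41.6%, against 21.1% of all probe sets) and leukemia 7 was the highest in 39 (43.8%, against 21.7%). Leukemias 1 and 7 were both above leukemias 3 and 5 in 40 of the 89 (44.9%, against 24.9% of all probe sets). Among the 43 counted lower, leukemias 1 and 7 were both below leukemias 3 and 5 in 30 (69.8%, against 26% of all). The median of the effector transcription factors relative to thymocytes was 0.99 in leukemia 1, against 0.79, 0.73 and 0.86 in leukemias 3, 5 and 7. The macrophage list median was 0.31 there, against 0.46, 0.92 and 1.31 in leukemias 3, 5 and 7.

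Sample titles divide the arrays in another way. Leukemias 2, 3, 4 and 5 and thymocyte arrays 1, 2 and 3 have a number of 4 digits in the title, and the others do not, and the labels do not say why. Each kind of title holds 2 Gzmb-high and 2 Gzmb-low leukemias, so the difference can be read within each. Leukemias 3 and 5 against 2 and 4 gave 91 probe sets higher (0.733%) and 31 lower (0.25%) by the same rule, and 61 and 16 of these were also counted over all 8. Leukemias 1 and 7 against 6 and 8 gave 167 higher (1.34%) and 113 lower (0.91%), with 79 and 41 shared. A probe set without overlap over all 8 has none within either kind of title. The shared counts are thus partly fixed by the rule and are no independent repeat. The Ccl5 difference was 3.74 within the titles with 4 digits and 4.31 within the others, and Gzmb itself gave 4.91 and 4.73. Iigp1 gave 3.60 and 2.43 and C1qb 2.50 and 1.92. Ahnak gave 2.08 and 3.59 and Cd7 1.37 and 3.18. Among thymocyte genes the differences were -0.42 and -3.57 for Rag1, -0.81 and -2.50 for Myb and -1.09 and -2.89 for Cd24a. Arg1 gave 3.71 and 1.42, and Jchain turned its sign, at -4.10 and 0.81. On the Gzmb-low side, Rag1 was 10.07 and 9.93 in leukemias 6 and 8 and 11.06 and 10.61 in leukemias 2 and 4. On the Gzmb-high side, leukemias 1 and 7 against 3 and 5 is also the division by title. A difference between those leukemias and a difference between kinds of title cannot be told apart there.

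**Figure D5:**
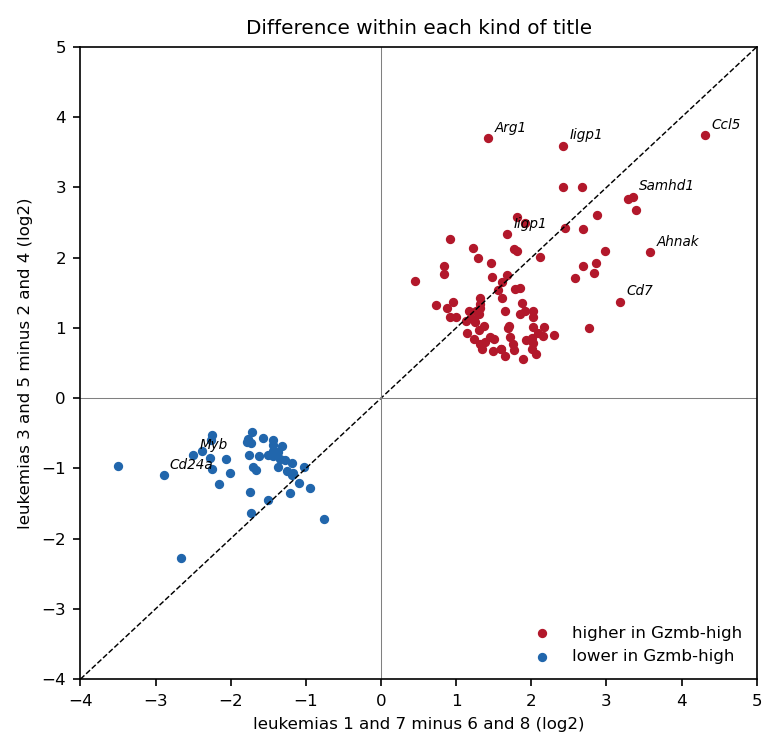
Difference on the log2 scale for each counted probe set within the leukemias without a 4-digit title number (horizontal axis) and within those with one (vertical axis); the dashed line marks equal values. Every probe set keeps its sign in both, as the rule of no overlap requires, and most of those lower in Gzmb-high leukemias lie above the line, with larger differences in leukemias 1 and 7 against 6 and 8.

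Receptor variable segments, which differ between T-cell clones, were read apart from the genes. Of 56 probe sets for receptor segments, 12 were for the T-cell receptor. Over all probe sets 4.4% lay wholly above and 3.78% wholly below, and 1 of the 12 was separated between the sides. This was Trgv4, a gamma-chain segment, at 9.02, 11.21, 11.44 and 10.74 against 11.82, 11.87, 11.82 and 12.45, with thymocytes at 7.65 to 8.57. Trgv1 was at least 10.98 in all 8 leukemias, against 7.39 to 8.14 in thymocytes, with no separation. The probe sets for beta-chain segments overlapped between the sides. A Trbv1 probe set was 12.92 in leukemia 3 and 6.16 to 6.63 in the other 7, against 9.52 to 9.89 in thymocytes. The other Trbv1 probe set, prone to cross-hybridization, was 12.69 to 13.41 in all 8 leukemias and 13.48 to 13.56 in thymocytes. A Trbv13-2 probe set that can cross-hybridize was 11.59, 10.74, 11.89 and 11.93 in leukemias 1, 5, 7 and 6 and 5.62 to 7.82 in leukemias 3, 2, 4 and 8, with thymocytes at 10.14 to 10.19. Its dimmer probe set was 5.02 to 7.67 over the leukemias, against 8.12 to 8.57 in thymocytes. Among the immunoglobulin segments, Ighv14-2, a heavy-chain segment named after its values were seen, had 3 probe sets higher on the Gzmb-high side without overlap. The brightest was 6.05, 6.56, 7.46 and 7.63 against 4.91, 3.88, 3.82 and 4.10, where the Gzmb-low side was near the control level, and the difference was at least 2.40-fold.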

How the data were processed

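The authors deposited 1 intensity per probe set and array on a linear scale, made with RMA per the submitters' processing notes; no later step is recorded there. Intensities were turned into log2 values without further scaling. The array number limits the precision.

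Of 12488 probe sets, 66 control (AFFX) probe sets were left out of tests. From the platform annotation, updated to RefSeq symbols, 10833 of the others had 1 gene symbol, 396 several and 1193 none; no gene was named from several. A gene with several probe sets was read by its brightest on average over the 12 arrays. The test was limma 3.58.1 (R 4.3.3, lmFit and eBayes, adjusted p under 0.05), tested on simulated data. Where a side was near the control level, folds are bounds against that level ("at least").

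Genes named are Gzmb, Ccl5, the 15 largest counted differences higher and 12 lower (receptor variable segments and unnamed clones such as AW112010, higher by 3.03, left out), and up to 4 members of each of 13 process lists and 3 of each of 9 cell lists. Sides, lists and named genes were chosen with earlier results of these data known. Alternatives covered normalization, fold, dim and cross-hybridizing probe sets, title number and leaving out arrays.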

Additional observations from a re-analysis of the deposited data

Results flagged for a closer look

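An array was singled out where its gap to the nearest other array of its group was large against the group's whole range (Dixon's ratio), which chance does in about 1 in 20 groups. It was so in 9 of the 196 groups of values examined, 98 genes in leukemias and in thymocytes. Most of the genes were picked on the split of the leukemias, and values of different genes on 1 array are not independent. The count therefore cannot be judged against that rate, and the arrays below are listed only as places to look. Among leukemias, Prf1 stood apart in leukemia 7 (ratio 0.528), at 8.83 against 5.95 to 7.31 in the other 7. Ect2, a cytokinesis gene, stood apart in leukemia 2 (0.564), at 7.09 against 6.04 to 6.50. Mcm4 and Mcm7, subunits of the replicative helicase, were lowest in leukemia 5 (0.559 and 0.568), at 7.53 against 8.01 to 8.38 and at 8.57 against 9.16 to 9.61. Among thymocytes it was array 4, the one with no 4-digit number in its title, that stood apart in 5 genes: Lilr4b (0.983), Mtf2 (0.885), Ms4a1 (0.867), Thy1 (0.860) and Sox4 (0.830).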

How the results depend on the processing

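The counts of 89 probe sets higher and 43 lower in Gzmb-high leukemias became 405 and 402 with no minimum fold and 188 and 131 at 1.5-fold or more. Leaving out 1 leukemia gave 75 to 120 higher and 31 to 71 lower, the 71 without leukemia 3. Leukemia 1 alone against the Gzmb-low arrays gave 134 higher, 57 of them among the 89, and 190 lower, 40 of them among the 43. For leukemia against thymocytes, leaving out 1 array gave 390 to 618 probe sets higher and 759 to 1426 lower by limma, with 759 and 792 lower without thymocyte arrays 1 and 2, where fewer controls enter. Other probe sets of Samhd1 (-0.032), Fbln1 (0.047), Aldh7a1 (0.086), Rag1 (0.10), Ifi204 (-0.0035) and Col3a1 (-0.036) had the opposite sign. With leukemia 1 alone, list medians were 0.41 for cytotoxic granule genes, 0.19 for cytokines, 0.53 for memory surface genes, -0.087 for JAK-STAT targets, 0.20 for gamma interferon, -0.014 for type I interferon, 0.27 for MHC class I, -1.13 for double-positive genes, 0.33 for mitosis, 0.24 for replication, 0.37 for NK, 0.29 for macrophage, 0.18 for dendritic cell, granulocyte, erythroid and stromal and 0.0028 for regulatory T-cell genes. Leaving out 1 leukemia gave 0.47 to 0.83 for cytotoxic granule genes, 0.24 to 0.40 for cytokines, -0.085 to 0.10 for JAK-STAT targets, 0.34 to 0.44 for MHC class I and 0.024 to 0.12 for granulocyte genes. The cause of these shifts was not tested. Quantile normalization, array centring and the title number as a block moved no list median by more than 1 SD between arrays and no count by over 1.5 times. No paired analysis was possible because replicate numbers only follow the order of the samples. Genes near the control level have no measurable fold.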
